A study of Mus musculus with 2 samples.

Results

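Mir140 and Mir455 are microRNA genes best known from cartilage, and they were followed here in the heart of the mouse embryo. Their rows in the deposited count tables were taken by gene identity, as those whose stable Ensembl identifier maps to Mir140 or Mir455. The 2 genes were chosen with earlier results of these data known. They are 2 of 1973 microRNA genes in those tables. The series holds 2 small-RNA libraries of hearts from strain B6NCrl embryos at embryonic day 10.5, sexes mixed. Replicate 1 was a pool of 69 embryos and replicate 2 a pool of 51, all labelled healthy, with no allele, transgene or treatment given. The labels number them as biological replicates of 1 group, so no condition, tissue or age was compared. Every comparison is between genes within a library or between the replicate pools, and the differences of pool and of library preparation cannot be told apart.

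A microRNA gene is transcribed as a hairpin, which is cut into a 5p and a 3p arm of about the size of the reads. One arm is loaded into an Argonaute protein and pairs with target mRNAs through its seed. Mir140 lies within Wwp2, which encodes an E3 ubiquitin ligase, and Mir455 lies within Col27a1, which encodes a fibrillar collagen of cartilage. Transcription factor Sox9, the master regulator of cartilage formation, drives both loci in chondrocytes, and mice without Mir140 have skeletal defects. Sox9 is also active in the mesenchyme of the endocardial cushions, from which the heart valves form, and the cushions are being filled with mesenchyme at about this age. The tables list microRNA genes only, so Wwp2, Col27a1 and Sox9 were not measured here. Pooled heart tissue was sequenced in bulk, so fewer cells of a type and less RNA per cell cannot be told apart.

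The mature arms are shown because their seeds, in capitals (bases 2 to 8), guide which mRNAs each can pair with, and because the labels' size range keeps RNA as short as these arms. Sequences are from RefSeq (GRCm38.p6), 5′ to 3′. The table held 3 arms of the 2 genes, and miR-140-5p was not among them.
miR-140-3p: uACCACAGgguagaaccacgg
miR-455-5p: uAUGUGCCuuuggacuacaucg
miR-455-3p: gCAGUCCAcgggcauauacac
The seeds of the 3 arms differ from one another. The arm miR-140-3p covers bases 45 to 65 of the Mir140 hairpin of 70 bases. Within the Mir455 hairpin of 82 bases, miR-455-5p covers bases 17 to 38 and miR-455-3p bases 54 to 74. The counts are per hairpin, so how the reads divide between the arms of a gene was not measured.

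Genes that share a seed with these arms had at most 5 counts in a heart library. Over the 1738 mature arms of the RefSeq table, 32.0% share their seed with an arm of another gene. One such arm was found for miR-140-3p, one for miR-455-5p and 0 for miR-455-3p. Both partners are printed so that their bases outside the seed can be set beside those above.
miR-497b: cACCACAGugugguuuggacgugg
miR-5129-3p: aAUGUGCCugugcaucucuucc
Mir497b, with the seed of miR-140-3p, had 5 own-strand counts in replicate 1 and 1 in replicate 2. Mir5129, with the seed of miR-455-5p, had 0 counts in replicate 1, which allows up to 0.721 CPM, and 5 in replicate 2. The longest run of bases that an arm shares with a mature arm of any other gene was 9 for miR-140-3p and 8 for both arms of Mir455.

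Mir140 (ENSMUSG00000065439.1) occupies chr8:107551244-107551313 on the plus strand of mm10. It lies in intron 16 of the 24-exon protein-coding transcript Wwp2-201, on the same strand as its host. That intron is 2141 bases long, and the hairpin starts 1108 bases after the upstream exon and ends 963 bases before the downstream one. A single-exon transcript of Wwp2 annotated as a retained intron, Wwp2-206, runs across the hairpin. Mir455 (ENSMUSG00000070102.1) occupies chr4:63256851-63256932, also on the plus strand and on that of its host. It lies in intron 10 of the 61-exon transcript Col27a1-201, an intron of 2318 bases. The hairpin begins 2109 bases after the upstream exon and ends 127 bases before the downstream one. Neither host gene holds another annotated microRNA gene. Neither hairpin has a run of 20 bases in common with a second annotated microRNA hairpin, on either strand, whereas 929 of the listed genes do. Reads that fit several places were left out of the gene counts by the authors, and such genes are undercounted.

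Both genes were detected in both pools, with no count under 1834. Levels are CPM, reads on the gene's own strand scaled so that all own-strand gene reads of the library (4163656 in replicate 1 and 4789068 in replicate 2) sum to 1000000. Reads of this size cover about a whole arm, so counts were not divided by hairpin length except where said. Mir140 had 14109 counts in replicate 1 and 13371 in replicate 2, or 3389 CPM (95% exact binomial interval 3333 to 3445) and 2792 CPM (2745 to 2840). Mir455 had 2515 counts in replicate 1 and 1834 in replicate 2, or 604 CPM (581 to 628) and 383 CPM (366 to 401). Both were higher in replicate 1 on this scale, and neither gene's intervals overlap between the libraries. Such a difference was common. With this scaling, 46.2% of the 424 genes tested below passed as higher in replicate 1, and their median log2 ratio was 0.29. The mean levels were 3090 ± 422 CPM for Mir140 and 493 ± 156 CPM for Mir455 (SD, n = 2). The coefficient of variation of the CPM was 13.7% for Mir140 and 31.7% for Mir455. The common biological coefficient of variation over all tested genes was 37.2% (edgeR, with TMM scaling). That value leaves out counting error and uses another scaling, so it is not a like measure. The intervals above reflect the counting of reads within a library alone. No molecular identifiers mark which reads come from the same molecule, so the intervals may be too narrow for a count of molecules.

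Reads at both genes came from the annotated strand alone. The count on the opposite strand was 0 for each gene in each library. For Mir140 this allows opposite-strand reads of up to 0.0213% of its own-strand count in replicate 1 and 0.0224% in replicate 2. For Mir455 the limits are 0.119% and 0.164%. The tables as a whole held 194185 opposite-strand gene counts in replicate 1 and 229836 in replicate 2, so none of these lay at the 2 genes.

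In the order of levels, Mir140 ranked 54 of all listed genes in replicate 1 and 50 in replicate 2, and Mir455 ranked 122 and 123. Of the 381 genes with at least 10 counts in both libraries, 85.6% had a lower mean than Mir140 and 67.7% a lower mean than Mir455. The median over these 381 genes was 136 CPM. Among the 150 of them that lie wholly in introns of protein-coding genes on the host's strand, as these 2 do, 84.7% were below Mir140 and 72.0% below Mir455, with a median of 91.9 CPM.

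**Figure D1:**
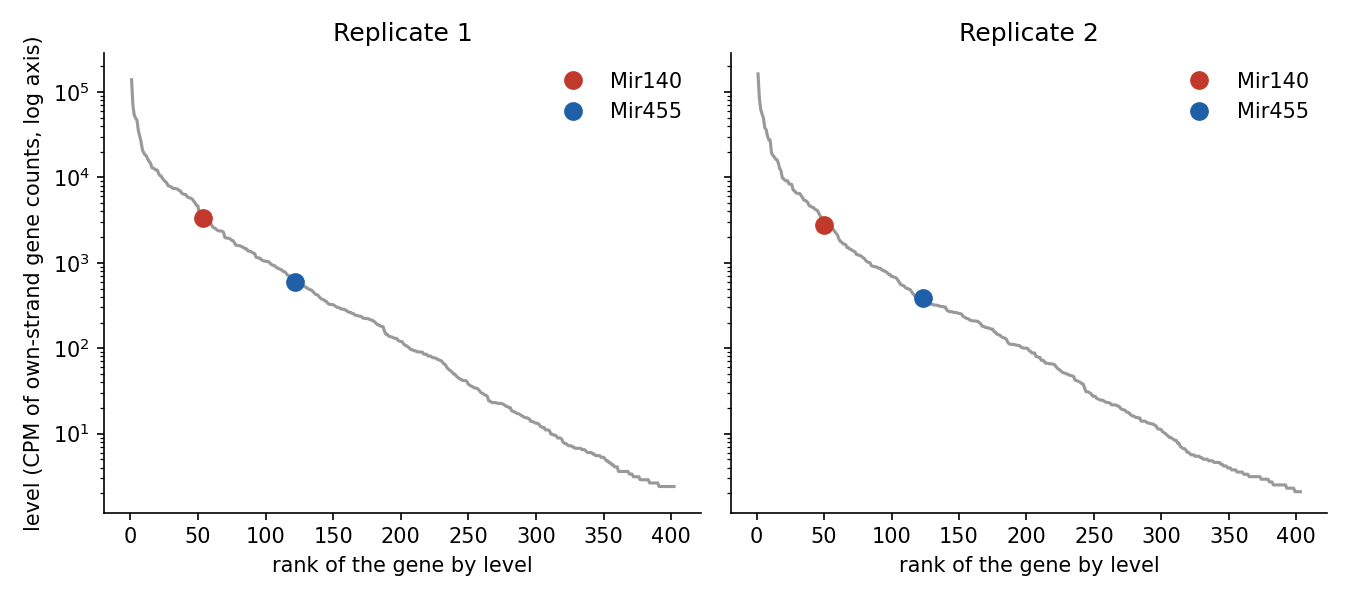
Level of each gene with at least 10 own-strand counts in the library (CPM, log axis) against its rank, 1 panel per library, with Mir140 and Mir455 as coloured points. Mir140 sits near rank 50 in both panels (54 and 50) and Mir455 near rank 120 (122 and 123), although the CPM of both are higher in replicate 1.

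Of the 6 genes next to Mir140 in mean level, 4 changed places with it between the libraries. The 3 above it were Mir10b, a Hox-cluster gene, with 3401 ± 4128 CPM, Mir149 with 3171 ± 628 and Mir28a with 3138 ± 91.2 CPM (SD, n = 2). Below it came Mir15a with 3025 ± 533, Mir381 of the imprinted Dlk1-Dio3 locus with 2897 ± 634 and Mir532 with 2565 ± 9.68 CPM. Mir532, with 2572 CPM in replicate 1 and 2558 in replicate 2, was below Mir140 in both libraries. Mir381 was too, with 3346 and 2449 CPM, though in replicate 1 its value lay within the counting interval of Mir140. Mir10b, Mir149 and Mir15a were above Mir140 in replicate 1 and below it in replicate 2, and Mir28a the reverse. The replicate 1 value of Mir15a, 3402 CPM, also lay within the counting interval of Mir140. Mir28a shares a stretch with Mir28c, so its count may be too low. Over the 2 libraries, the level patterns closest to that of Mir140 were those of Mir15a, Mir149 and Mir381. Their distances in log2(CPM + 1) were 0.08, 0.10 and 0.19.

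The 6 genes around Mir455 in mean level all changed places with it between the libraries. Mir339 had 501 ± 66.2 CPM, Mir293, of a cluster known from pluripotent cells, had 497 ± 121, and Mir20b, a relative of the Mir17-92 genes, had 495 ± 272 CPM. Below Mir455 came Mir125b-1 with 478 ± 221, Mir671 with 473 ± 56.5 and Mir25 with 472 ± 114 CPM. Mir293 in replicate 1, with 582 CPM, and Mir25 in replicate 2, with 391 CPM, lay within the counting interval of Mir455. The place of Mir455 in this order is therefore not settled at n = 2. The closest patterns were those of Mir293, Mir25 and Mir125b-1, at distances of 0.12, 0.13 and 0.26 in log2(CPM + 1). Mir125b-1 shares a stretch with Mir125b-2, so its count may be too low.

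Mir140 exceeded Mir455 in both libraries, and by unequal factors. The ratio of Mir140 counts to Mir455 counts was 5.61 in replicate 1, with an exact 95% interval of 5.38 to 5.86. It was 7.29 in replicate 2, with one of 6.94 to 7.66. On the log2 scale it averaged 2.68 ± 0.27 (SD, n = 2). Per base of hairpin the ratio was 6.57 in replicate 1 and 8.54 in replicate 2. With 2 libraries an exact sign-flip test of this ratio cannot go below a two-sided p of 0.5, so it was not tested against equality. Mir455 made up 15.1% of the reads of the pair in replicate 1 and 12.1% in replicate 2. This change of ratio needs no scaling between libraries, and it exceeded counting error (Fisher's exact test, two-sided p = 1.68e-15; ratio of ratios 1.30, 95% interval 1.22 to 1.39). That test compares 2 libraries and not conditions. Over the 72390 pairs of the 381 detected genes, the log2 ratio of partners moved between the libraries by a median of 0.63, against 0.38 for Mir140 and Mir455. For 31.8% of the pairs it moved less.

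The library comparison then took in all genes. An exact conditional binomial test, two-sided and with TMM-scaled library sizes, was run on every gene that reached 10 counts in either library, and p was adjusted by Benjamini-Hochberg over all 424 genes tested. This asks whether the pools differ beyond counting error. Of the 424 genes, 61.6% passed in either direction, 31.1% higher and 30.4% lower in replicate 1, so a call is common among genes that reach 10 counts. The median gene differed 1.38-fold between the libraries.

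Mir455 was higher in replicate 1 and Mir140 did not pass. Mir455 was 1.30-fold higher, with a log2 ratio of replicate 1 over replicate 2 of 0.38 (95% exact interval 0.30 to 0.47, exact binomial test, adjusted p = 1.23e-17). Its ratio was larger in size than that of 41.5% of tested genes, which puts it below the middle of the spread between the pools. The log2 ratio of Mir140 was 0.0049 (-0.029 to 0.039, exact binomial test, adjusted p = 0.828), and just 0.472% of tested genes had a smaller one in size. Among the 38 other genes within 2-fold of the Mir140 level, 35 passed the test, and Mir744, Mir296 and Mir16-1 did not. The median size of the log2 ratio over the 38 genes was 0.25. Among 68 genes within 2-fold of the Mir455 level, 59 passed, with a median size of the log2 ratio over the 68 of 0.44.

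**Figure D2:**
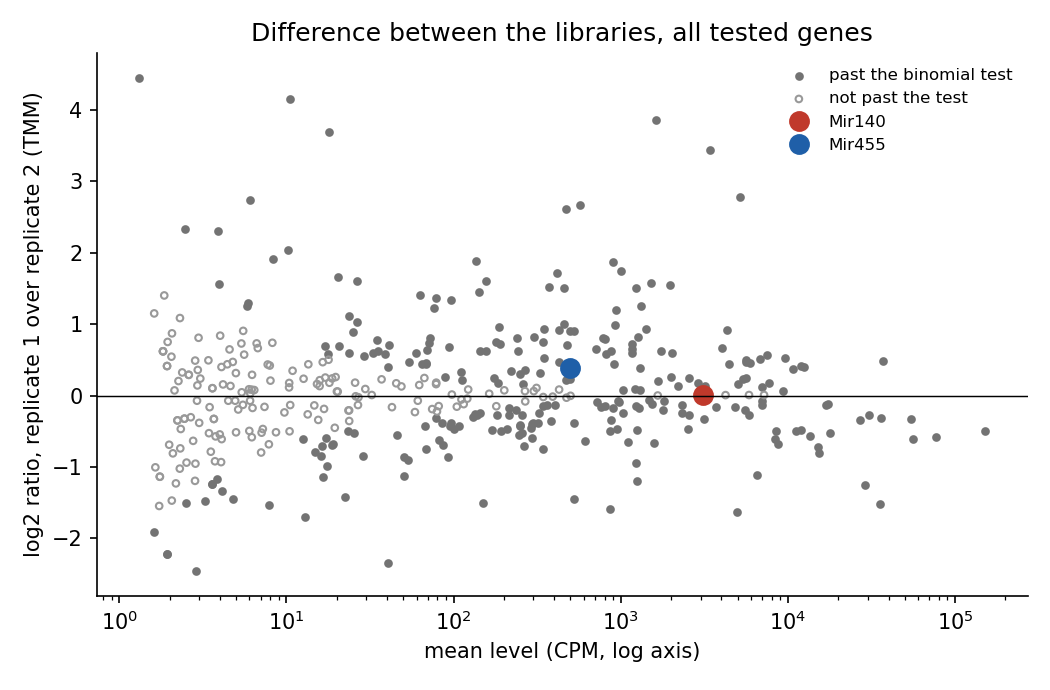
Log2 ratio of replicate 1 over replicate 2 after TMM scaling against mean level (CPM, log axis) for all 424 tested genes, filled where the exact binomial test passed and open where it did not. Mir140 lies on the line of no difference, and Mir455 lies above it at 0.38, within the bulk of the genes.

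The call for Mir140 turned on the scaling. When the libraries were scaled to their total gene counts, as CPM are, the log2 ratio of Mir140 was 0.28 (0.25 to 0.31, exact binomial test, adjusted p = 2.80e-57) and it passed as higher in replicate 1. With this scaling the log2 ratio of every gene is 0.27 larger than with TMM, and the median of all tested genes is 0.29, so Mir140 moved with the median gene. Of the 424 genes, 61.8% passed with total counts, 46.2% higher and 15.6% lower in replicate 1. With DESeq2 size factors Mir140 had -0.0027 and did not pass (exact binomial test, adjusted p = 0.914). Mir455 was higher in replicate 1 under each scaling, at 0.66 with total counts and 0.38 with DESeq2 size factors.

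**Figure D3:**
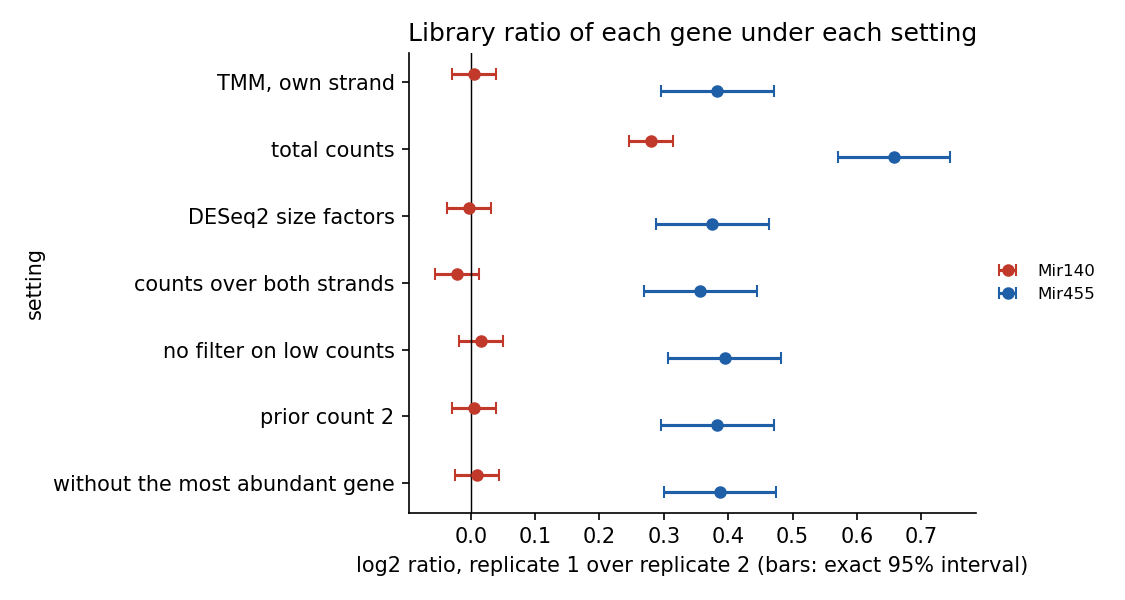
Log2 ratio of replicate 1 over replicate 2 for Mir140 and Mir455, with exact 95% intervals, under each scaling, strand and filter setting. Mir455 is above 0 in every row, while Mir140 is near 0 in every row but that of total counts, where it is at 0.28.

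Markers of several cell types differed between the pools far more than Mir455 did, on the CPM scale. The 4 mesenchyme genes Mir199a-1, Mir199a-2, Mir199b and Mir214 summed to 6456 CPM in replicate 1 and 2919 in replicate 2. Of these 4, 3 passed as higher in replicate 1 and 0 as lower (4 and 0 with total counts). Over all tested genes 31.1% passed as higher and 30.4% as lower, and 46.2% and 15.6% with total counts, which is the background for each marker count here. With TMM, Mir214, transcribed with Mir199a-2 from the Dnm3os transcript of mesenchyme, had a log2 ratio of 0.92, and Mir199a-2 had 0.59. Mir199b had 0.32, below the 0.38 of Mir455. Mir199a-1, with 12 counts in replicate 1 and 4 in replicate 2, did not pass with TMM. Markers of tissues outside the heart went the same way. The 7 epithelium genes summed to 7068 CPM in replicate 1 and 2089 in replicate 2, with 7 of 7 higher in replicate 1. The 6 Hox-cluster genes, which mark body-axis position, summed to 17889.6 and 2051 CPM, with 5 of 5 tested higher in replicate 1. Mir122, the main liver microRNA, had 3078 and 174.6 CPM.

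Heart muscle, endothelium and smooth muscle markers went the other way. The myosin-intron genes Mir208a, Mir208b and Mir499 summed to 34740.4 CPM in replicate 1 and 69048 in replicate 2, with 3 of 3 lower in replicate 1. The endothelial gene Mir126a had 53306 and 55504 CPM. Mir143 and Mir145a, taken here as smooth muscle markers, summed to 69745 and 86022 CPM, and their cell source in these hearts was not measured. Mir126a, Mir143 and Mir145a each passed as lower in replicate 1 with TMM and with total counts. Of 3 red blood cell genes, 2 were lower and 0 higher (1 and 1 with total counts), with sums of 1160.3 and 1713 CPM. The neural genes were at or near 0, with Mir9-2 and all 3 Mir124a genes at 0 counts in both libraries and a sum of 1.68 CPM in replicate 1 and 1.46 in replicate 2. All 5 listed neural genes share a run of 20 bases with another hairpin, so their reads may have been left out and these values are lower limits. The part of any of these in the Mir455 difference was not tested.

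Set against these markers within a library, Mir140 was at 9.75% of the summed heart muscle genes in replicate 1 and 4.04% in replicate 2. Against the summed mesenchyme genes it was at 52.5% in replicate 1 and 95.7% in replicate 2. Mir455 was at 9.36% of the mesenchyme sum in replicate 1 and 13.1% in replicate 2. The mesenchyme sum differed between the libraries by a larger factor than either gene did. Most of that sum was Mir214, with 5982 CPM in replicate 1 and 2614 in replicate 2. Mir199b, with 394 and 262 CPM, differed by a smaller factor than Mir455, with 604 and 383 CPM, but the intervals of their log2 ratios overlap. Of the 4 mesenchyme genes, 3 share such a run with each other, so their sum is a lower limit and these percentages are upper limits.

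Other microRNAs tied to cartilage ranged in mean level from 0.465 CPM for Mir365-1 to 4298 CPM for Mir214. The list has 24 genes, Mir140 and Mir455 included, and was drawn up from their known roles, with earlier results of these data known. All 24 were in the tables, and 20 had at least 10 counts in both libraries. Mir214 had 5982 CPM in replicate 1 and 2614 in replicate 2, a mean of 4298 ± 2381 CPM (SD, n = 2). Mir140 was the highest in replicate 2 and next to Mir214 in replicate 1, so the 2 are not ordered at n = 2. Mir101b, reported in human cells to target SOX9, had 1810.5 ± 180.0 CPM, and Mir27b, which targets the collagenase MMP13 in human chondrocytes, had 1036 ± 13.5 CPM. Mir145a, reported to target Sox9 in chondrocytes, had 946 ± 92.2 CPM and Mir148a 876 ± 30.5 CPM. Mir320 had 526 ± 27.2 CPM and overlapped the range of Mir455.

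Mir29a, of a family that targets collagen mRNAs, had 286 CPM in replicate 1, below Mir455. In replicate 2 it had 396 CPM, above Mir455 but within the counting interval of Mir455 (366 to 401 CPM). Mir199b, with 394 and 262 CPM, was below Mir455 in both libraries. Mir675, made from the H19 transcript, had 268 ± 25.2 CPM, and Mir574, in an intron of Fam114a1, had 79.5 ± 2.01 CPM. Mir1247, reported in human cells to target SOX9, had 41.8 CPM in replicate 1 and 11.3 in replicate 2. Mir193b had 20.9 and 15.2 CPM in replicates 1 and 2. Mir365-1 and Mir365-2, copies of each other known from chick growth-plate cartilage, had 3 and 18 counts in replicate 1 and 1 and 3 in replicate 2. Of the 24 genes, 11 share a stretch with another hairpin, and their counts are lower limits.

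**Figure D4:**
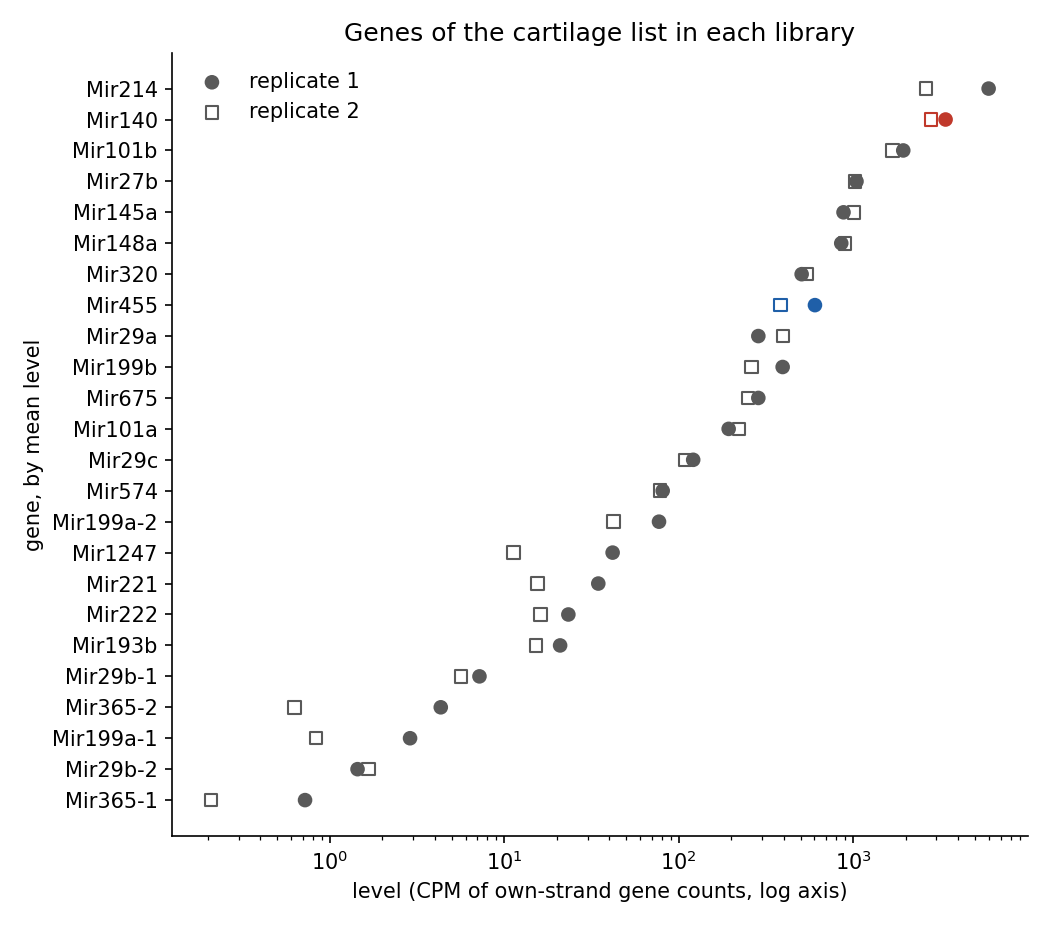
Level (CPM, log axis) of the 24 genes of the cartilage list, ordered by mean, with filled circles for replicate 1 and open squares for replicate 2. Mir140 (red) and Mir214 are at the top, and Mir455 (blue) is at rank 8. The replicate 1 value lies right of the replicate 2 value for all genes but Mir145a, Mir101a, Mir29a, Mir29b-2, Mir148a and Mir320.

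Of the cartilage list, 22 genes were tested, and 7 passed as higher in replicate 1, 7 as lower and 8 in neither direction. The shares are close to those of all tested genes. The list's median log2 ratio was 0.04, beside 0.01 over all tested genes. The higher genes were Mir455, Mir214, Mir199a-2, Mir199b, Mir1247, Mir221 and Mir365-2. Mir1247 had a log2 ratio of 1.61 on 174 and 54 counts in replicates 1 and 2 (exact binomial test, adjusted p = 3.63e-14), and Mir365-2 one of 2.33 on 18 and 3 counts. The lower genes were Mir145a, Mir101a, Mir101b, Mir29a, Mir27b, Mir148a and Mir320, with log2 ratios from -0.74 for Mir29a to -0.07 for Mir101b. Mir675 was at -0.08 and, like Mir140, did not pass (exact binomial test, adjusted p = 0.230). With total counts as the scaling 12 were higher and 5 lower, beside 46.2% and 15.6% of all tested genes, and Mir101b turned to 0.20 and passed as higher.

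MicroRNAs linked to valve and cushion formation were led by Mir143 and Mir126a, followed by Mir21a, Mir23a and Mir23b, all at levels above Mir140. This list has 18 genes, of which 16 were in the tables and 16 were tested. Mir143 had 76938 ± 11418 CPM, Mir126a 54405 ± 1554, and Mir21a, needed for valve formation in zebrafish, 17824 ± 2123 CPM. Mir23a and Mir23b had 15396 ± 3931 and 11172 ± 1198 CPM. In zebrafish, miR-23 limits cushion formation through the hyaluronan synthase gene has2. Mir140 lay below all 5 in both libraries, at 6.36% of Mir126a in replicate 1 and 5.03% in replicate 2. Mir204, known from valve calcification, had 78.4 ± 1.57 CPM, less than Mir455 in both libraries. Of the 16 tested, 4 passed as higher in replicate 1 and 10 as lower, beside 31.1% and 30.4% of all tested genes. The median log2 ratio was -0.36, beside 0.01 over all tested genes. The 4 higher were Mir199a-2, Mir199b, Mir214 and Mir218-2, from an intron of Slit3. With total counts 5 were higher and 7 lower, beside 46.2% and 15.6% of all tested genes, and the median was -0.08, beside 0.29. With TMM, Mir455 was higher in replicate 1 as these 4 were, while Mir143, Mir145a, Mir126a, Mir23a and Mir23b were lower there. That direction is not particular to these 4, since the epithelium genes, the tested Hox-cluster genes and Mir122 also passed as higher. The lists overlap. Mir199a-2, Mir199b and Mir214 are also in the cartilage list and among the mesenchyme markers, and Mir199a-1, Mir145a and Mir27b are in the cartilage list too. Of the 16 genes, 10 share a stretch with another hairpin, so their levels are lower limits.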

How the data were processed

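The deposited values are raw read counts per microRNA gene, made by the authors for each library from its own alignment to mm10 with the GENCODE M4 annotation, per the deposited README files. For aligner, trimming and counter, the sources used here give nothing. The 3 columns hold counts over both strands, on the gene's own strand and on the opposite strand. Of 10042860 and 10996991 reads in replicates 1 and 2, 26.3% and 25.5% were unmapped, 23.3% and 23.5% mapped to several places and 8.98% and 7.41% lay outside genes on the own strand. These rows were left out.

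Names and positions came from GENCODE M21, also mm10, which matched 1894 of 1973 identifiers. TMM was computed with edgeR 4.0.16 and size factors with DESeq2 1.42.0 (R 4.3.3). Binomial and Fisher tests used scipy 1.17.1, with a prior count of 0.5 in log2 ratios and a threshold of 0.05. With 1 group, edgeR's quasi-likelihood test has no groups to compare. Poisson counts were simulated for the 424 genes of the replicate comparison, with no spread between pools. With library totals in place of TMM-scaled sizes, the binomial test called 64.0% of 1.25-fold and 90.0% of 2-fold changes and 0.893% of unchanged genes. These rates hold for counting error alone and not for pools that differ beyond it. Genes named are Mir140, Mir455, the 3 above and below each in mean level, the 3 with the closest pattern, seed partners, list members and markers. Members and lists were chosen with earlier results of these data known. The 2-fold windows around each level are descriptions.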

Additional observations from a re-analysis of the deposited data

How the results depend on the processing

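No paired analysis was possible because there is 1 group. The log2 ratio of Mir455 stayed between 0.36 and 0.66 and past the exact binomial test in all 6 alternatives. That of Mir140 was 0.28 and passed with total counts. It was -0.0027 with DESeq2 size factors and -0.021 with counts over both strands, a change of sign within the interval, and it did not pass in those or in the other 3. Mean CPM of Mir140 was 1310.4 CPM of all deposited reads and 3637 without the most abundant gene, and that of Mir455 was 208.6 CPM of all deposited reads, since these change the denominator. With each replicate left out in turn, Mir140 had 2792 to 3389 CPM, Mir455 383 to 604 CPM, and the log2 ratio of Mir140 over Mir455 was 2.49 to 2.87. Past the replicate test were 261 of 424 genes, against 270 of 433 over both strands, 262 of 424 with each other scaling, and 254 of 740 with no filter, which adds genes with few counts. Depth did not limit detection of either gene, but 2 libraries give no estimate of replicate spread for a single gene beyond 1 degree of freedom.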
